A study of Mus musculus with 8 samples.

Results

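The genes described here are 10 genes of MHC class I presentation and its relatives in mouse T29 cells: H2-K1, H2-D1, B2m, Tap1, Tap2, Tapbp, Psmb8, Psmb9, Hfe and Cd1d1. The rule names them and uses no measured value, but they were chosen with earlier results of these data known. All 10 were found among the 18193 genes measured. The 10 genes had 29 probe sets between them, and the probe set of highest mean over all arrays stands for each gene. T29 is a thymic lymphoma cell line, described in the design text of the series as lacking Ikaros, a zinc-finger transcription factor of lymphocytes encoded by Ikzf1. All cells carried a retroviral vector, either MigR1-Ik1ER, which supplies an inducible Ikaros, or MigR1 alone, and all were kept for 24 h in 100 nM 4-hydroxytamoxifen (4OHT), the inducer, or in ethanol, its solvent. The 4 groups of 2 arrays were Ik1ER cells with 4OHT, Ik1ER cells with ethanol, MigR1 cells with 4OHT and MigR1 cells with ethanol. The labels do not say whether the transduced cells were clones or pools, or whether replicates came from separate cultures, so p-values rest on array-to-array spread that may be technical only.

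MHC class I molecules show peptides from inside the cell to CD8 T cells. Proteasomes, and in lymphoid cells the immunoproteasome with Psmb8 and Psmb9, cut the peptides, the TAP transporter moves them into the endoplasmic reticulum, and tapasin holds empty class I molecules at the transporter until a peptide is bound. The heavy chains H2-K1 and H2-D1 reach the surface together with beta-2-microglobulin. HFE and CD1d have the same fold and the same light chain but other tasks: HFE binds the transferrin receptor and takes part in iron sensing, and CD1d shows lipids to natural killer T cells. Immature thymocytes carry little class I at the surface, while CD1d on cortical thymocytes selects natural killer T cells.

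T cell markers fitted the label: 7 of 8 measured markers were above background, gauged here by 5.27, the mean of the brightest Bacillus control probe set, and their mean level was 10.20 to 10.36 on every array. Among them Cd2 rose by 0.87 on 4OHT in Ik1ER cells, and Cd3e, Cd3g and Cd3d fell by 0.43, 0.69 and 0.49 on the log2 scale. Cd2 started from 5.25 and 5.15 in Ik1ER cells with ethanol, just under background. Ikzf1 read 10.86 ± 0.58 in Ik1ER cells with 4OHT, 10.88 ± 0.40 in Ik1ER cells with ethanol, 8.34 ± 0.25 in MigR1 cells with 4OHT and 8.13 ± 0.02 in MigR1 cells with ethanol on 1 probe set (SD, n = 2 each), the probe set that separated the lines. A second Ikzf1 probe set read 10.11 ± 0.20 in Ik1ER cells with 4OHT, 10.30 ± 0.20 in Ik1ER cells with ethanol, 10.28 ± 0.04 in MigR1 cells with 4OHT and 10.28 ± 0.11 in MigR1 cells with ethanol, above background in MigR1 cells too. Some markers of other cells were above background: 2 of 5 for B, 3 of 7 for myeloid, 2 of 6 for stromal and 2 of 4 for erythroid cells. None of the B, stromal or erythroid markers was called. The brightest were the stromal marker Pdgfrb, with a mean of 9.06, and the erythroid marker Epor, with 7.76. Pdgfrb changed by -0.91 ± 0.31 on 4OHT in Ik1ER cells (SE, limma, adjusted p = 0.168), and Epor by -0.16 ± 0.14 (0.638). Of the 7 myeloid markers, Itgam rose by 0.54 and Lyz2 and Cd14 fell by 0.60 and 1.26 on the log2 scale. Itgam had a mean level of 4.59, under background, Lyz2 one of 5.36, near it, and Cd14 one of 6.51. The mean myeloid level was 5.07 to 5.15 in Ik1ER cells with 4OHT and 5.27 to 5.38 in Ik1ER cells with ethanol, around background in both, and its part in the results was not tested. On the replicate 2 arrays of Ik1ER cells the transferrin receptor control read higher at its 3′ end than at its 5′ end, by 1.91 with 4OHT and 1.66 with ethanol, against 1.15 to 1.39 on the other 6 arrays. The hybridisation controls read 8.86 on replicate 2 of Ik1ER with 4OHT, against 9.41 to 9.54 on the other 7 arrays. The 2 arrays stand apart, and the members that were called are also given without them. That leaves 1 array in each Ik1ER group, so the spread in those fits comes from the MigR1 arrays alone.

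In Ik1ER cells, 4OHT against ethanol gave 1 large change and 3 smaller ones among the 10 genes. Hfe fell 4.37-fold, while Cd1d1 rose 1.65-fold, Psmb8 1.36-fold and Tap2 1.31-fold, all with an adjusted p under 0.05. The other 6, which include both classical heavy chains and B2m, did not pass the test. The called share was 4 of 10, beside a background of 5.34% of all genes called, of which 2.8% were higher and 2.53% lower. The median change of the 10 genes was 0.31 on the log2 scale, beside -0.0044 for all genes. As the genes were chosen with earlier results of these data known, neither excess over all genes carries a test. In MigR1 cells none of the 10 was called on 4OHT, where limma called 0% of all genes and 386 of them had an unadjusted p under 0.05.

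**Figure D1:**
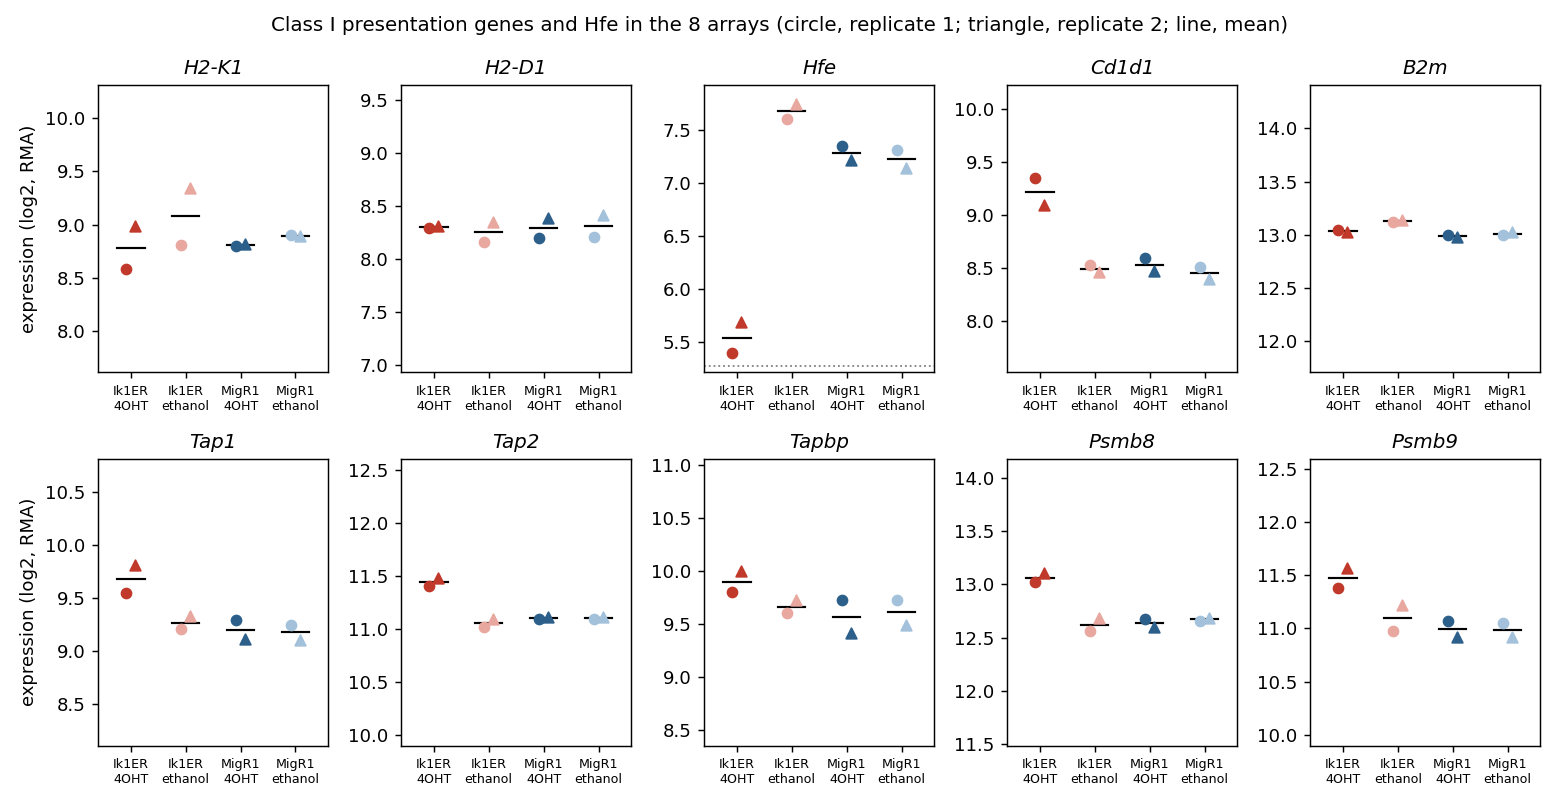
Deposited log2 level (vertical axis) of each of the 10 genes on each of the 8 arrays, 1 point per array, with a bar at each group mean. The 2 arrays of Ik1ER cells with 4OHT lie below the other 6 for Hfe and above them for Cd1d1, Tap1, Tap2, Tapbp, Psmb8 and Psmb9.

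The upstream bases of 5 genes are shown: Psmb8 and Hfe, which changed on 4OHT, the segment that Tap1 shares with Psmb9, and B2m and H2-D1, the light chain and a heavy chain. They were searched for 3 runs of letters: TGGGAA, a core found in Ikaros binding sequences, GAAANNGAA, of the interferon response type, and GGGNNTTCC, of the NF-kB type. The RefSeq promoter table, on build GRCm38.p6, held windows for 8 of the 10 genes, all but Tap2 and Cd1d1, and 250 bases before each start were read on both strands. All 8 held at least 1 match to any of the 3, but the share of all windows with any match was not counted. Each sequence runs 5′ to 3′ on the gene's own strand, and capitals mark the matches. Positions are counted back from the first base of the gene.
Tap1, -225 to -1, chr17:34187331-34187555, plus strand: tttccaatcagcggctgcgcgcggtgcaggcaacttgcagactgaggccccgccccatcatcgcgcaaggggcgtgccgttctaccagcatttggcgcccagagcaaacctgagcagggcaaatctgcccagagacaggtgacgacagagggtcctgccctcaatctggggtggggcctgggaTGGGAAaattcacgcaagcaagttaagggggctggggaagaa
Psmb8, -250 to -1, chr17:34197945-34198194, plus strand: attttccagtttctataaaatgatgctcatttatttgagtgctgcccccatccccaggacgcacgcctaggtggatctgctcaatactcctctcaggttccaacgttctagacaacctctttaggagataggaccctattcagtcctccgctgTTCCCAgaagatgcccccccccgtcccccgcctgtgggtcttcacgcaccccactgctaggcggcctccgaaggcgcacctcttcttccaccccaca
B2m, -180 to -81, chr2:122147507-122147606, plus strand: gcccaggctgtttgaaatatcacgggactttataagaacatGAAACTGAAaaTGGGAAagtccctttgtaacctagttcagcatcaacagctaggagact
H2-D1, -180 to -81, chr17:35262914-35263013, plus strand: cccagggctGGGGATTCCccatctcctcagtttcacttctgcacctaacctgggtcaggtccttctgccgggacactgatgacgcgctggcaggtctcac
Hfe, -250 to -1, chr13:23710855-23711104, minus strand: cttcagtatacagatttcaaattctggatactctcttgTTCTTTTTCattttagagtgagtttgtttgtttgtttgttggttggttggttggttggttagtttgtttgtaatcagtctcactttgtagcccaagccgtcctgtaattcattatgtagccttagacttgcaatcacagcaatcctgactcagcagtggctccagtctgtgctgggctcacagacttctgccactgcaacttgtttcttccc
Tap1 and Psmb9 start head to head, and the 225 bases shown are the whole segment between their starts, so that its 1 TGGGAA lies at -42 to -37 of Tap1 and at -189 to -184 of Psmb9.

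TGGGAA was present in the windows of 5 of the 8 genes, B2m, Tap1, Tapbp, Psmb8 and Psmb9, and in 21.5% of 27025 windows, 1 per gene of the table. Of these 5, Psmb8 was called on 4OHT in Ik1ER cells and the other 4 were not. The interferon type was present upstream of B2m and Hfe, and in 7.16% of windows. The NF-kB type, with the same letters GGGGATTCC in both, was present upstream of H2-K1 and H2-D1, and in 4.88% of windows. No match overlapped a match of another kind, and a match of letters is not a binding site.

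Among the genes of peptide supply, Psmb8 rose, and Psmb9, with a change of like size, did not pass the test. Psmb8, a catalytic subunit that replaces Psmb5 in the immunoproteasome, had log2 levels of 13.02 and 13.11 in Ik1ER cells with 4OHT, against 12.56 and 12.68 in Ik1ER cells with ethanol. It read 12.68 and 12.60 in MigR1 cells with 4OHT, against 12.66 and 12.69 in MigR1 cells with ethanol. Both arrays of Ik1ER cells with 4OHT thus lay above the 6 others, which sat together. The log2 fold change in Ik1ER cells was 0.45 ± 0.08 (SE, limma, adjusted p = 0.0158). The call was lost without replicate 2 of Ik1ER with 4OHT (adjusted p = 0.0609), without replicate 1 of Ik1ER with ethanol (0.101), without both replicate 2 arrays of Ik1ER (0.0835), with only the arrays compared (0.0899) and with the mean over its probe sets (0.0647).

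Psmb9, the immunoproteasome subunit that replaces Psmb6, read 11.38 and 11.57 in Ik1ER cells with 4OHT, against 10.97 and 11.22 in Ik1ER cells with ethanol. In MigR1 cells the values were 11.07 and 10.92 with 4OHT, against 11.05 and 10.92 with ethanol. Its arrays also separated, but those of Ik1ER cells with ethanol differed by more than those of Psmb8. The log2 fold change was 0.38 ± 0.11 (SE, limma, adjusted p = 0.113), with a 95% interval of 0.12 to 0.64. A second probe set of Psmb8, ending in _x_at, read 7.31 ± 0.22 with 4OHT and 6.92 ± 0.22 with ethanol in Ik1ER cells (SD, n = 2 each), a change of 0.38 that was not called among all 45037 probe sets (limma, adjusted p = 0.334).

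The other proteasome genes gave smaller values. Of 15 genes for proteasome subunits and activators, 14 were measured and 0 were called, with log2 fold changes between -0.11 and 0.17 and a median of 0.07. At an unadjusted p under 0.05 the list held 1 of 14 genes, beside 3230 genes or 17.8% of all genes in this comparison. That gene, Psmb10, the remaining inducible catalytic subunit, changed by 0.17 ± 0.07 (limma, adjusted p = 0.240), and the structural subunit Psma7 by 0.12 ± 0.08 (0.476).

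Of the 2 TAP chains, Tap2 rose and Tap1 did not pass the test. Tap2, one of the paired chains of the peptide transporter, read 11.41 and 11.48 in Ik1ER cells with 4OHT, against 11.02 and 11.10 in Ik1ER cells with ethanol. The 4 MigR1 arrays fell in a narrow band, 11.09 and 11.11 with 4OHT, against 11.10 and 11.11 with ethanol. The change in Ik1ER cells was the same in both replicate numbers to 2 decimals, 0.39, and the fit gave 0.39 ± 0.07 (SE, limma, adjusted p = 0.0193). Tap2 lost its call without replicate 2 of Ik1ER with 4OHT (adjusted p = 0.0673), without replicate 1 (0.118) or replicate 2 (0.0693) of Ik1ER with ethanol, without both replicate 2 arrays of Ik1ER (0.106) and with only the arrays compared (0.112).

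Tap1, the partner chain of Tap2, read 9.54 and 9.81 in Ik1ER cells with 4OHT, against 9.21 and 9.33 in Ik1ER cells with ethanol. MigR1 cells had 9.30 and 9.11 with 4OHT, against 9.24 and 9.11 with ethanol. No array of another group reached the lower of the 2 arrays with 4OHT in Ik1ER cells. The log2 fold change was 0.41 ± 0.11 (SE, limma, adjusted p = 0.0935), larger than that of Tap2 and with a wider error. The second Tap1 probe set above background changed by 0.08, and the mean over all 4 probe sets of the gene by 0.07.

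Tapbp encodes tapasin, the bridge between TAP and the empty class I molecule. It read 9.80 and 10.00 in Ik1ER cells with 4OHT, against 9.60 and 9.73 in Ik1ER cells with ethanol. MigR1 cells read 9.73 and 9.41 with 4OHT, against 9.73 and 9.49 with ethanol. Both arrays of Ik1ER cells with 4OHT were the highest of the 8, but the gap was smaller than the spread between the MigR1 replicates. This gave a log2 fold change of 0.23 ± 0.13 (SE, limma, adjusted p = 0.432), and the second probe set gave 0.18.

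Of 10 genes of peptide trimming and loading, all measured, 2 rose, 0 fell and 8 did not pass the test, with a median of 0.02. Of all genes, 2.8% were called higher. At an unadjusted p under 0.05 (limma) the list held 3 of 10 genes, beside 17.8% of all genes. Tapbpl, which encodes the tapasin-related peptide editor TAPBPR, rose by 0.99 ± 0.08 on the log2 scale (SE, limma, adjusted p = 0.000637). Erap1, the aminopeptidase that trims peptides in the endoplasmic reticulum, rose by 0.43 ± 0.10 (adjusted p = 0.0438), but it did not pass once any 1 of the 4 Ik1ER arrays or of the 2 MigR1 ethanol arrays was left out (adjusted p up to 0.195). Tapbpl kept its call in each of these fits. The tests of Tapbpl and of Tapbp differ in outcome, and the difference between the 2 genes was not tested.

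Psmb9, Tap1, Psmb8 and Tap2 lie next to each other on chromosome 17 in the class II region of the MHC, and their 4 log2 fold changes ran from 0.38 to 0.45. The 3 nearest measured coding genes on either side, chosen after the values were seen, were not called. Brd2, which encodes a bromodomain protein, changed by 0.21 ± 0.13 (limma, adjusted p = 0.474), and H2-DMa by 0.13 ± 0.15 (0.733). On the other side, H2-Ab1, the beta chain of the class II molecule I-A, changed by -0.02 ± 0.13 (0.956). H2-DMb2, H2-Ob and H2-Aa had mean levels of 5.02, 3.04 and 4.63, under background.

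**Figure D2:**
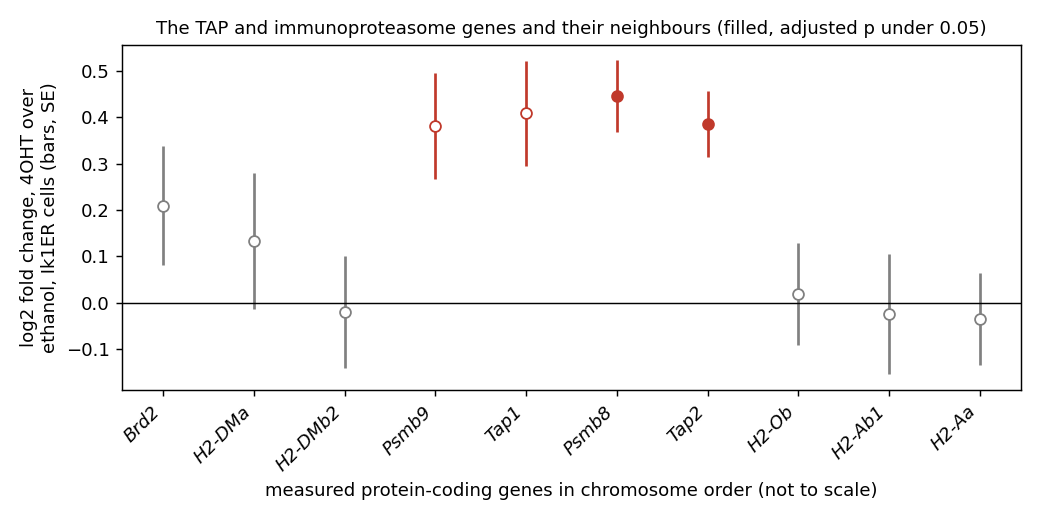
Log2 fold change of 4OHT over ethanol in Ik1ER cells (vertical axis, bars are SE from limma over 8 arrays) for 10 measured coding genes in chromosome order. The 4 genes Psmb9, Tap1, Psmb8 and Tap2 lie between 0.38 and 0.45, with Psmb8 and Tap2 called (filled), and the 3 on either side lie between -0.04 and 0.21.

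The classical heavy chains did not pass the test. H2-K1 read 8.58 and 8.99 in Ik1ER cells with 4OHT, against 8.81 and 9.35 in Ik1ER cells with ethanol. MigR1 cells read 8.80 and 8.82 with 4OHT, against 8.90 and 8.89 with ethanol. The Ik1ER groups overlapped, and the arrays of replicate 2 were the higher of each pair. The log2 fold change was -0.30 ± 0.18 (SE, limma, adjusted p = 0.477), with a 95% interval of -0.72 to 0.12. It was -0.03 without replicate 2 and -0.56 without replicate 1 of Ik1ER with ethanol, and -0.09 without replicate 1 and -0.50 without replicate 2 of Ik1ER with 4OHT. All 4 probe sets of H2-K1 gave a negative value, between -0.39 and -0.14, and 0 of them were called.

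H2-D1 read 8.29 and 8.31 in Ik1ER cells with 4OHT, against 8.16 and 8.35 in Ik1ER cells with ethanol. In MigR1 cells it read 8.20 and 8.38 with 4OHT, against 8.21 and 8.42 with ethanol. The 4 groups overlapped, and the log2 fold change in Ik1ER cells was 0.05 ± 0.11 (SE, limma, adjusted p = 0.895), with a 95% interval of -0.20 to 0.29. This sign was not stable: it was -0.01 with a probe set outside the _x_at class, -0.03 with the mean over its probe sets and -0.05 without replicate 1 of Ik1ER with ethanol. Of its 9 probe sets, 4 were higher and 5 lower, between -0.19 and 0.17, and 4 had a mean above background. Of the 13 probe sets of H2-K1 and H2-D1, 11 end in _x_at, which marks probes that can bind related transcripts, and heavy-chain genes are close copies of one another, so values of single heavy chains are uncertain.

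B2m, the light chain shared by class I molecules, did not pass the test. It read 13.05 and 13.03 in Ik1ER cells with 4OHT, against 13.12 and 13.14 in Ik1ER cells with ethanol. MigR1 cells read 13.00 and 12.98 with 4OHT, against 13.00 and 13.02 with ethanol. Its log2 fold change was -0.09 ± 0.07 (SE, limma, adjusted p = 0.554), and the 95% interval, -0.24 to 0.06, leaves out changes of the size of Psmb8. Its second probe set gave -0.02.

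The other heavy chains were measured for 8 of 16 genes, and 0 of these 8 were called, with a median log2 fold change of 0.07. At an unadjusted p under 0.05 the list held 1 of 8 genes, beside 17.8% of all genes. This was Mr1, which shows vitamin B metabolites to MAIT cells and changed by 0.82 ± 0.22 (SE, limma, adjusted p = 0.0767), with a wider error than Cd1d1. Its 2 arrays of Ik1ER cells with 4OHT read 8.82 and 8.13, against 7.82 and 7.49 in Ik1ER cells with ethanol. Without replicate 1 of Ik1ER with 4OHT the change was 0.48 (adjusted p = 0.175), and without replicate 2 of Ik1ER with ethanol the adjusted p was 0.308. The change of Mr1 was 1.16 without replicate 2 of Ik1ER with 4OHT and 1.00 without both replicate 2 arrays of Ik1ER. Mr1 was called with the replicate number as a block (limma, adjusted p = 0.0192) and with the mean over its probe sets (0.0112). Fcgrt, the Fc receptor that protects IgG and albumin, changed by -0.19 ± 0.11 (adjusted p = 0.444) at a level under background.

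Cd1d1 rose. It read 9.34 and 9.09 in Ik1ER cells with 4OHT, against 8.53 and 8.46 in Ik1ER cells with ethanol. MigR1 cells read 8.59 and 8.47 with 4OHT, against 8.51 and 8.40 with ethanol. The 6 other arrays lay between 8.40 and 8.59, and both arrays of Ik1ER cells with 4OHT lay clearly above them. Cd1d1 had a log2 fold change of 0.73 ± 0.10 (SE, limma, adjusted p = 0.00674). The call held in all 18 other fits, with log2 fold changes of 0.60 to 0.85 and adjusted p up to 0.0488. Without both replicate 2 arrays of Ik1ER it was 0.82 (adjusted p = 0.0333). A second probe set gave 0.80 ± 0.15 (limma, adjusted p = 0.0368 among all probe sets). It ends in _s_at, which marks probes shared by several transcripts, and Cd1d2, a close copy, was measured apart at a mean level of 4.73, under background, with a change of 0.03.

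Hfe had the largest change of the 10 genes and was the only one called as lower. It read 5.40 and 5.69 in Ik1ER cells with 4OHT, against 7.60 and 7.74 in Ik1ER cells with ethanol. MigR1 cells read 7.35 and 7.22 with 4OHT, against 7.31 and 7.14 with ethanol. Both arrays of Ik1ER cells with 4OHT stood far under the 6 others and only just over background. The group means were 5.54 ± 0.21 with 4OHT and 7.67 ± 0.10 with ethanol in Ik1ER cells (SD, n = 2 each), a log2 fold change of -2.13 ± 0.12 (SE, limma, adjusted p = 0.000161). Only 0.0715% of all genes changed by as much in either direction. RMA compresses changes of dim probe sets. In bulk RNA, fewer cells with a transcript and less transcript per cell cannot be told apart.

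The fall of Hfe held in all 18 other fits, with log2 fold changes of -2.28 to -1.29 and adjusted p up to 0.00601. The value nearest 0 came from averaging the 2 probe sets of Hfe. The second, at a mean level of 4.69 and so under background, read 4.38 ± 0.17 with 4OHT and 4.83 ± 0.14 with ethanol in Ik1ER cells (SD, n = 2 each), a change of -0.45 (limma, adjusted p = 0.18 among all probe sets). Without both replicate 2 arrays of Ik1ER, which left 1 array in each Ik1ER group, the change of Hfe was -2.20.

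**Figure D3:**
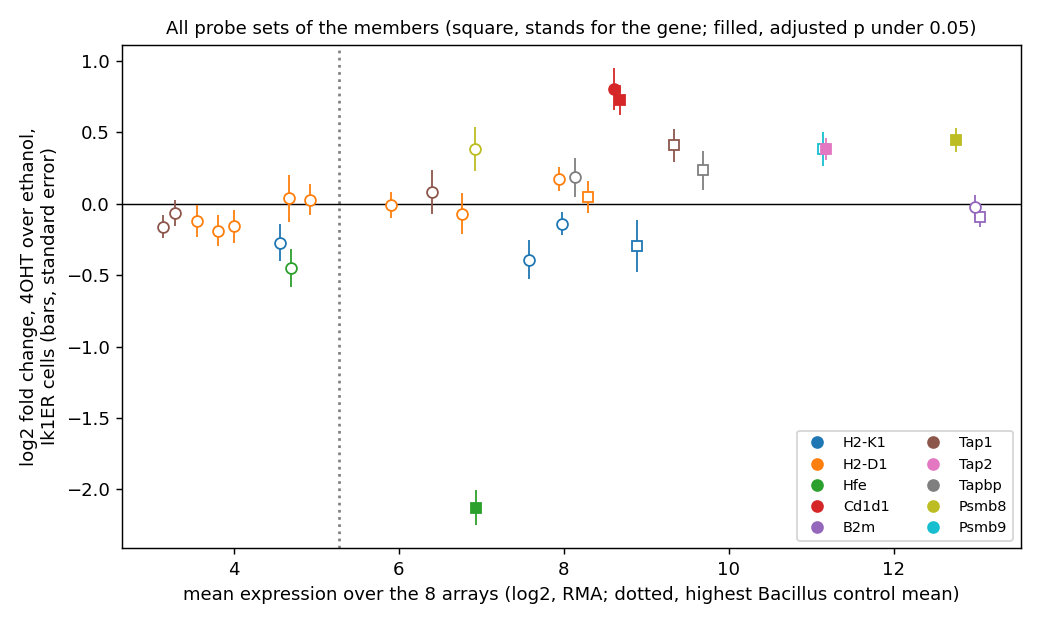
Log2 fold change of 4OHT over ethanol in Ik1ER cells (vertical axis) against mean level over all arrays (horizontal axis). Points are the 29 probe sets of the 10 genes, with SE bars from limma. They are filled where the adjusted p over all 45037 probe sets was under 0.05. The 5 filled points belong to Hfe, Cd1d1 with both of its probe sets, Tap2 and Psmb8.

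The change on 4OHT in Ik1ER cells minus that in MigR1 cells passed the test for 1 of the 10 genes, beside 1.26% of all genes. Hfe gave -2.19 ± 0.17 on the log2 scale (SE, limma, adjusted p = 0.00225), with a change of 0.06 in MigR1 cells. Cd1d1 gave 0.65 (adjusted p = 0.0864), Psmb8 0.48 (0.101), Tap2 0.39 (0.137), Tap1 0.38 (0.431) and Psmb9 0.37 (0.447). For Cd1d1, Psmb8 and Tap2, a call in Ik1ER cells and none in MigR1 cells does not amount to a difference between the lines at this threshold. Cd1d1 passed with the replicate number as a block (adjusted p = 0.0365), with trend and robust moderation (0.0394) and without replicate 2 of Ik1ER with 4OHT (0.0399). Trend and robust moderation also called Psmb8 (adjusted p = 0.00641) and Tap2 (0.0219). All 10 genes changed by between -0.08 and 0.08 on 4OHT in MigR1 cells.

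**Figure D4:**
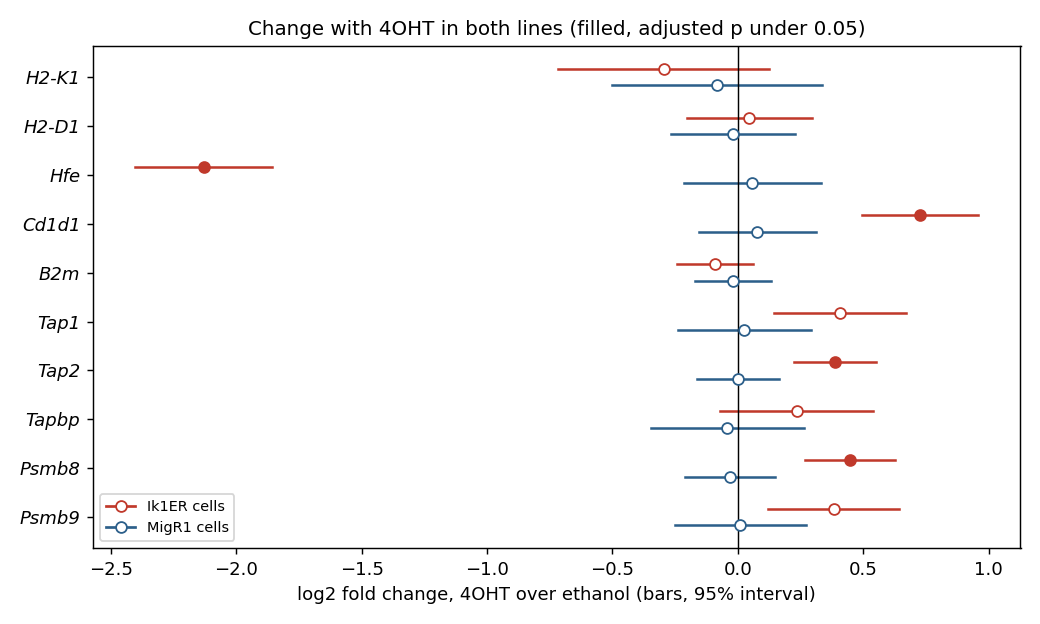
Log2 fold change of 4OHT over ethanol (horizontal axis) for each of the 10 genes in Ik1ER cells and in MigR1 cells, with 95% intervals from limma over 8 arrays. The MigR1 points lie between -0.08 and 0.08, and the Ik1ER points run from -2.13 for Hfe to 0.73 for Cd1d1.

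With 4OHT in both lines, 4 of the 10 genes were called between Ik1ER and MigR1 cells, beside 5.08% of all genes. This comparison shares the arrays of Ik1ER cells with 4OHT with the comparison to ethanol, so it adds only the MigR1 arrays. Hfe was 3.34-fold lower (log2 fold change -1.74, limma, adjusted p = 0.000437), and Cd1d1 (0.69, adjusted p = 0.00907), Psmb8 (0.42, 0.0209) and Tap2 (0.34, 0.0327) were higher. Psmb9 (0.48, adjusted p = 0.0558) and Tap1 (0.47, 0.0588) did not pass the test, and H2-K1 (-0.03), H2-D1 (0.01) and B2m (0.05) were near 0. Psmb9 and Tap1 were called with dim genes left out (adjusted p = 0.0381 for Psmb9 and 0.0403 for Tap1), with trend and robust moderation (0.0156 for Psmb9 and 0.0214 for Tap1) and with quantile normalization repeated (0.0433 for Psmb9 and 0.0432 for Tap1), which made 6 members called. Psmb9 was also called with the mean over probe sets (0.0437), and Tap1 without replicate 1 of Ik1ER with 4OHT (0.0385). Tap2 lost this call whichever of the 8 arrays was left out (adjusted p up to 0.169), Psmb8 without replicate 2 of Ik1ER with 4OHT or either MigR1 array with 4OHT (up to 0.154), and Cd1d1 without replicate 2 of MigR1 with 4OHT (0.0807). Without both replicate 2 arrays of Ik1ER, Tap2 (adjusted p = 0.109) and Psmb8 (0.0786) were not called.

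Between Ik1ER and MigR1 cells in ethanol limma called 0% of all genes, with 968 at an unadjusted p under 0.05. Hfe was the member with the smallest p: 7.67 ± 0.10 in Ik1ER cells and 7.22 ± 0.12 in MigR1 cells (SD, n = 2 each), a log2 difference of 0.45 ± 0.12 (SE, limma, unadjusted p = 0.00543, adjusted p = 0.913). Both Ik1ER ethanol arrays lay above all 4 MigR1 arrays, which is the opposite side from the Ik1ER arrays with 4OHT. Hfe in Ik1ER cells with 4OHT was 4.37-fold lower than in Ik1ER cells with ethanol and 3.34-fold lower than in MigR1 cells with 4OHT.

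Counting arrays alone, both arrays of Ik1ER cells with 4OHT lay above the 6 others for 6 of the 10 genes, a pattern that 12.6% of all genes had. They lay below the 6 others for Hfe alone, a pattern that 11.1% of all genes had. H2-K1, H2-D1 and B2m showed neither. All 10 genes were above background on every array.

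Among 16 transcriptional regulators of class I genes, 14 were measured, 1 rose, 0 fell and 13 did not pass the test, with a median of 0.08. Of all genes, 2.8% were called higher. At an unadjusted p under 0.05 (limma) the list held 3 of 14 genes, beside 17.8% of all genes. Irf1, an interferon-induced activator of Tap1, Psmb9 and class I heavy chains, rose by 0.38 ± 0.07 on the log2 scale (SE, limma, adjusted p = 0.0215), but the call was lost without replicate 1 of Ik1ER with 4OHT, either Ik1ER ethanol array or either MigR1 ethanol array (adjusted p up to 0.125). Nlrc5, the class I transactivator, named here after its value was seen, had a mean level of 3.52, under background, and a change of -0.05.

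Of 7 interferon receptors and their kinases, all measured, 3 rose and 0 fell, with a median of 0.23. Of all genes, 2.8% were called higher. At an unadjusted p under 0.05 (limma) the list held 4 of 7 genes, beside 17.8% of all genes. The list was chosen with earlier results of these data known. Ifngr1, the ligand-binding chain of the interferon-gamma receptor, rose by 0.84 ± 0.11 on the log2 scale (SE, limma, adjusted p = 0.00482). Ifnar2 rose by 0.63 ± 0.13 (adjusted p = 0.0314) and Ifnar1 by 0.42 ± 0.09 (0.0423), the chains of the type I interferon receptor. Ifngr1 kept its call whichever array was left out. Ifnar2 lost its call without replicate 1 of Ik1ER with 4OHT, either Ik1ER ethanol array or either MigR1 array with 4OHT (adjusted p up to 0.167), and Ifnar1 when any Ik1ER array or either MigR1 array with 4OHT was left out (up to 0.192).

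Of 12 iron handling partners of Hfe, 11 were measured, 0 rose, 1 fell and 10 did not pass the test, with a median of -0.17. Of all genes, 2.53% were called lower. At an unadjusted p under 0.05 (limma) the iron list held 5 of 11 genes, beside 17.8% of all genes. Id1, Slc40a1, Slc11a2 and Aco1 were lower and Hmox1 was higher, and Slc40a1 had a mean level of 4.49, under background. The iron list was chosen with earlier results of these data known. The gene that fell was Id1, a target of BMP signals, by 0.77 on the log2 scale (SE 0.15, limma, adjusted p = 0.0275), a call lost without replicate 2 of Ik1ER with 4OHT or replicate 1 of Ik1ER with ethanol (adjusted p up to 0.148). Tfrc, the transferrin receptor that HFE binds, named after its value was seen, changed by -0.04 (adjusted p = 0.831). Of 7 class II genes, 6 were measured and 0 were called, with a median of -0.03. Cd74, the invariant chain, changed by -0.31 (limma, adjusted p = 0.323), and H2-DMa by 0.13 (0.733). At an unadjusted p under 0.05 the class II list held 0 of 6 genes, beside 17.8% of all genes.

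**Figure D5:**
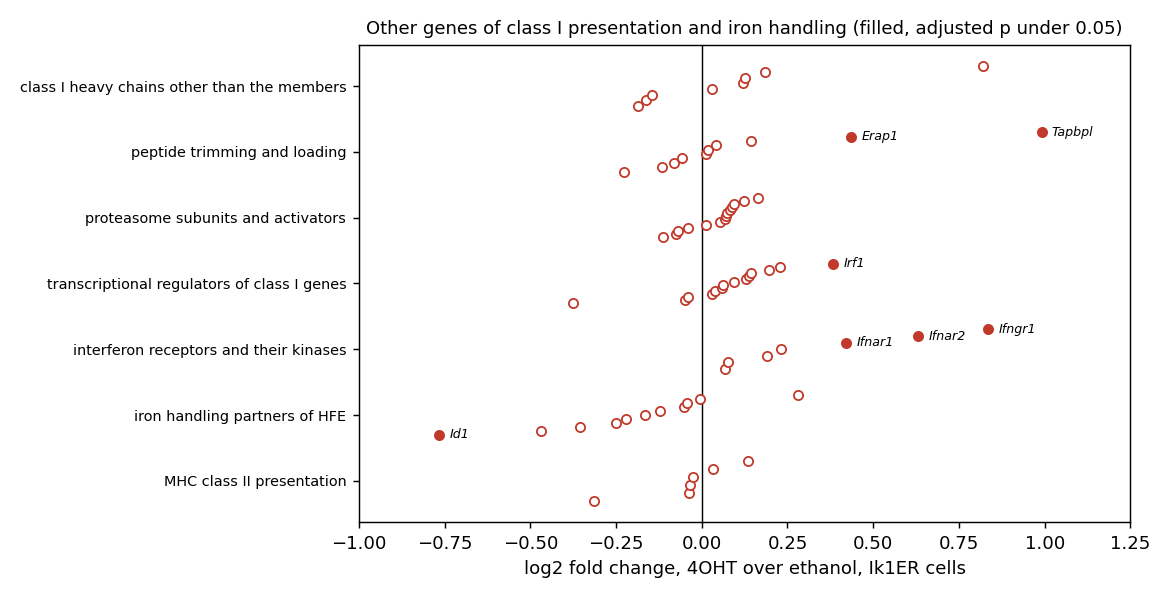
Log2 fold change of 4OHT over ethanol in Ik1ER cells (horizontal axis) for each measured gene of the 7 lists, 1 point per gene, filled where the adjusted p over all genes was under 0.05. The 10 genes described are not shown. The proteasome genes lie between -0.11 and 0.17, and the interferon receptor list between 0.07 and 0.84.

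Members and predicted or clone-named genes were set aside. Among the rest, the 3 genes whose profile over the 8 arrays was most like that of Hfe were Gpr83, Gfi1b and Ifitm2. Likeness was the root mean square difference between profiles centred on their own means: 0.0997 for Gpr83, 0.138 for Gfi1b and 0.155 for Ifitm2, where Hfe itself varied by 0.825 about its mean. Gpr83, a G protein-coupled receptor, read 6.40 and 6.78 in Ik1ER cells with 4OHT, against 8.43 and 8.60 in Ik1ER cells with ethanol. Gfi1b, a transcriptional repressor of blood cells, read 5.80 and 5.94 with 4OHT, against 7.86 and 7.68 with ethanol in those cells. Ifitm2, an interferon-induced membrane protein, read 5.48 and 5.46 with 4OHT, against 7.59 and 7.44 with ethanol in those cells. The likeness was chosen on all 8 arrays and carries no test.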

How the data were processed

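Biotin-labelled RNA of T29 cells was hybridised to Affymetrix mouse arrays, per the labels' protocols. The authors made the deposited log2 expression values with RMA, per the submitters' processing notes, and the table has 1 column per array. The RMA version and probe set definitions are not stated in the labels used here. RMA brings arrays to a common distribution, so a global shift cannot be seen, and it compresses changes of dim genes. The array medians were 5.36 to 5.43.

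Of the probe sets, 34945 had 1 gene symbol in the platform annotation. These gave 18193 genes, with the probe set of highest mean standing for each. A limma model of group means (limma 3.58.1, R 4.3.3, lmFit and eBayes) used all 8 arrays and left 4 residual degrees of freedom. P-values were adjusted by Benjamini-Hochberg over all genes, and an adjusted p under 0.05 was called. Errors are SD over 2 arrays or SE from limma. Precision is limited by how few arrays there are. The procedure was run on simulated data with independent noise and changes of 1 or 2 on the log2 scale. That run does not cover smaller changes or replicates that vary together. No 2 arrays held identical values.

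The members and lists were chosen with earlier results of these data known. Named were all members, up to 4 called genes of each list by smallest p (otherwise the 2 of smallest p), and the 3 genes nearest to Hfe. The search for these 3 left out members and predicted or clone-named genes. Alternatives were the replicate block, normalization, a filter on dim genes, the probe set rule, moderation, the arrays fitted, each array left out and a fold threshold. Proteins were not compared here.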

Additional observations from a re-analysis of the deposited data

Results flagged for a closer look

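The change of Hfe on 4OHT differed between the 2 lines by a test of the difference itself. The change in Ik1ER cells minus that in MigR1 cells was -2.19 on the log2 scale (SE 0.17, limma, adjusted p = 0.00225). Both replicate numbers of Ik1ER cells showed the fall, with 4OHT minus ethanol values of -2.20 and -2.05. The difference had the same sign in the 17 other fits, with values of -2.33 to -1.36. Those of these fits that left arrays out had 1 array in a group.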

How the results depend on the processing

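The counts were 971 genes and 4 members called on 4OHT in Ik1ER cells, 230 and 1 for the difference between the lines, and 925 and 4 for Ik1ER against MigR1 cells in 4OHT. With only the arrays compared, the first was 399 genes and 2 members and the last 416 and 2. With a log2 fold change of at least 1, they were 156 and 1, 109 and 1, and 140 and 1. Trend and robust moderation gave 444 and 4 for the difference between the lines. Leaving out 1 array gave 441 to 832 genes and 2 to 4 members for the first, 52 to 273 and 1 to 2 for the second and 237 to 805 and 1 to 4 for the last, with fewer arrays fitted. Without both replicate 2 arrays of Ik1ER the counts were 389 and 2, 90 and 1, and 592 and 2. In MigR1 cells the count of 0 became 1 under the _x_at rule, and between the lines in ethanol it became 1 with the mean over probe sets. The causes were not tested.

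Replicate numbers are shared between groups, but the labels do not say what they mark. The replicate differences of same-numbered arrays correlated across genes at 0.446 between the 2 Ik1ER groups and 0.267 between the 2 MigR1 groups. With the number as a block, 1160 genes and 4 members were called in Ik1ER cells, 341 and 2 for the difference and 1073 and 4 in 4OHT.

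Values that changed sign were uncalled each time. H2-D1 on 4OHT in Ik1ER cells became -0.0066 under the _x_at rule and -0.029 with the mean over probe sets, and leaving out 1 array gave -0.052 to 0.142. For the difference between the lines, H2-D1 became -0.069 under the _x_at rule and -0.041 to 0.170 without 1 array, and H2-K1 was -0.480 to 0.055 without 1 array. In 4OHT, H2-D1 became -0.0094 with quantile normalization, -0.094 under the _x_at rule and -0.082 to 0.102 without 1 array. There H2-K1 was -0.232 to 0.175 without 1 array, and B2m became -0.0060 with the mean over probe sets. H2-DMa on 4OHT in Ik1ER cells was -0.025 to 0.292 without 1 array. Of 835 values for 47 single-gene results, 733 kept direction and side of the threshold, 69 lost and 19 gained a call, and 14 changed sign. Trend and robust moderation called Tap1 (limma, adjusted p = 0.0407) and Psmb9 (0.0426) on 4OHT in Ik1ER cells.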
